A study of Mus musculus with 18 samples.

Results

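Genes of cholesterol synthesis and its control were examined in ED1SQ4, a lung cancer cell line of the mouse, after inhibition of cyclin-dependent kinase 2 (CDK2). The members were chosen by gene symbol and were *Srebf1*, *Srebf2*, *Insig1*, *Hmgcs1*, *Idi1*, *Fdps*, *Sqle* and *Lss*, which are 8 of the 55450 annotated genes in the count data. Each symbol matched 1 row, and all 8 genes passed the filter on low counts in every comparison. For 72 hours, cells received either vehicle or CYC065 (Fadraciclib, an inhibitor of CDK2 and CDK9) at 0.5 μM. RNA-Seq was performed on unsorted cells and on the diploid (2N) and polyploid (4N) cells that were sorted by DNA content after staining with DyeCycle Green and a wash in phosphate buffered saline. The 6 conditions were therefore vehicle unsorted, CYC065 unsorted, vehicle 2N, vehicle 4N, CYC065 2N and CYC065 4N cells. All of them came from the same cell line in culture.

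The labels list 3 replicates for each condition, but these carry 1 library name with part numbers. Among the 3 parts, genes with whole counts gave a chi-square per degree of freedom between 0.991 and 1.02 in every condition, as sampling noise alone would give. The statistic was 4.35 to 7.60 over genes with fractional counts, which RSEM divides between similar genes, and 1.62 to 2.24 over all genes. *Idi1*, *Fdps* and *Insig1* had fractional values. Per member and library it reached 4.41 for *Lss* and 2.92 for *Srebf2*. The parts were summed and counted as 1 library per condition. For the 8 members, the coefficient of variation among the 3 parts was 0.181% to 8.14%, the highest for *Lss* in vehicle 4N cells (605 to 711 counts). Summed libraries held 54750127 to 62795460 counts. Levels are given as CPM, the count of a gene relative to the size of its library, with sizes adjusted by the trimmed mean of M values (TMM), and with 95% counting intervals that cover counting error only. No spread between cultures was measured and no test between conditions was possible. A gene is called higher or lower where 2 levels differ by more than 2-fold, which is a description of size.

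Cells build cholesterol from acetyl-CoA through the mevalonate steps to farnesyl diphosphate, then through squalene and lanosterol to the sterol end products. When sterols in the endoplasmic reticulum run low, SCAP escorts the sterol regulatory element-binding proteins (SREBPs) to the Golgi, where proteases release the active transcription factors. INSIG proteins hold SCAP in the endoplasmic reticulum when sterols are plentiful. SREBP2, encoded by *Srebf2*, acts chiefly on genes of cholesterol synthesis and uptake, while SREBP1, encoded by *Srebf1*, acts more on genes of fatty acid synthesis. Their activity is set largely by this processing, so mRNA levels do not measure active SREBP.

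Promoter sequence from RefSeq was matched for 6 of the 8 members, as 8 promoters of 250 bases before to 50 bases after a start site (GRCm38.p6). *Sqle* and *Fdps* had no match, and *Srebf1* had more than 1 promoter. SREBPs are known to act together with NF-Y and Sp1, so 3 motifs were searched on both strands: the core of a sterol regulatory element (TCACNCCAC), the CCAAT box (CCAAT) and the GC box (GGGCGG). The letters TCACNCCAC were present in 1 of the 8 member promoters, that of *Hmgcs1*, 137 bases before the start site, and in 1.24% of all 32851 promoters. A CCAAT box was present in 7 of 8 member promoters against 37.4% of all promoters. A GC box was present in 7 of 8 against 35.7%. Each of the 6 genes had each of these boxes in at least 1 promoter. A match describes letters and not an occupied site. The stretches below hold matches in genes whose levels are described next. Capitals mark the motifs on either strand (ATTGG and CCGCCC are CCAAT and GGGCGG on the other strand), and each sequence is the plus strand. No matches overlap in these stretches.
Hmgcs1, chr13:119690166-119690285: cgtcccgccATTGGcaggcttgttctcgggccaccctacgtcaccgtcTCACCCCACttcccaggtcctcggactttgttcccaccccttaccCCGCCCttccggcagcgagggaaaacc
Idi1, chr13:8885506-8885605: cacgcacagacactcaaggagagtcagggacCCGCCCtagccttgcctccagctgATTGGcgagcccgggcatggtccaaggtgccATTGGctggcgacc
Srebf2, chr15:82147114-82147233: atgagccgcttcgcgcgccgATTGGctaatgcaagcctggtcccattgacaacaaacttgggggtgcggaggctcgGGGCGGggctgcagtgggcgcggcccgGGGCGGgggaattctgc
Lss, chr10:76531465-76531564: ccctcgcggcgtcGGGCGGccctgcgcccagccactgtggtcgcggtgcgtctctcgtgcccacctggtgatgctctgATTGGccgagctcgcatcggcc
The stretch of *Hmgcs1* holds all 3 motifs, whereas those of *Idi1*, *Srebf2* and *Lss* hold CCAAT and GC boxes without the sterol regulatory element letters.

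*Srebf2* had the highest CPM of the 8 genes in every library. Its level was 416 CPM in vehicle unsorted and 444 CPM in CYC065 unsorted cells. It was 166 CPM in vehicle 2N, 190 CPM in vehicle 4N, 303 CPM in 2N and 288 CPM in 4N cells with CYC065. Both unsorted libraries were thus above both CYC065 sorted libraries, which were above both vehicle sorted libraries. Per length of merged exons, *Srebf2* ranged from 58.6 to 149 TPM, the length-scaled unit, and was first of the 8 genes in the 4 sorted libraries. In vehicle unsorted cells *Idi1* was first, at 150 TPM, and in CYC065 unsorted cells *Insig1* was first, at 144 TPM.

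*Srebf1* did not share this order. Its level was 65.4 CPM in vehicle unsorted, 56.7 CPM in CYC065 unsorted, 78.8 CPM in vehicle 2N, 70.7 CPM in vehicle 4N, 52.8 CPM in 2N and 55.2 CPM in 4N cells with CYC065. The 3 vehicle libraries were above the 3 CYC065 libraries, and the highest and the lowest level differed by 1.49-fold, the narrowest range of the 8 genes. Counting intervals overlapped between CYC065 unsorted and CYC065 4N cells and between CYC065 4N and CYC065 2N cells. *Srebf1* encodes more than 1 isoform from separate start sites, and these counts per gene do not separate them.

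*Insig1*, the sterol-sensing brake on SCAP and itself an SREBP target, had the widest range. It was at 152 CPM in vehicle unsorted and 200.4 CPM in CYC065 unsorted cells. It was at 26.9 CPM in vehicle 2N, 38.0 CPM in vehicle 4N, 111 CPM in 2N and 83.6 CPM in 4N cells with CYC065. The highest and the lowest library differed by 7.44-fold, in the same order of libraries as *Srebf2*.

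The mevalonate enzymes spread nearly as widely. *Hmgcs1*, the synthase that makes HMG-CoA, was at 219 CPM in vehicle unsorted, 167 CPM in CYC065 unsorted, 32.0 CPM in vehicle 2N, 43.7 CPM in vehicle 4N, 148 CPM in 2N and 113 CPM in 4N cells with CYC065. *Idi1*, which interconverts the isopentenyl building blocks, was at 204 CPM, 100.4 CPM, 28.3 CPM, 42.7 CPM, 81.7 CPM and 71.0 CPM in the same order of libraries. *Fdps*, which makes farnesyl diphosphate, was at 181 CPM, 135 CPM, 30.3 CPM, 49.6 CPM, 114 CPM and 92.8 CPM. All 3 were highest in vehicle unsorted and lowest in vehicle 2N cells, 6.85-fold apart for *Hmgcs1*, 7.23-fold for *Idi1* and 5.96-fold for *Fdps*. No neighbouring libraries in these orders had overlapping counting intervals. Reads of *Fdps* and *Idi1* are partly uncertain, because 26.2% and 17.7% of their 50-base words also occur in another gene, against at most 2.17% for the other 6 members.

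The enzymes of the squalene steps had the same order of libraries over a narrower range. *Sqle*, the squalene epoxidase, was at 292 CPM in vehicle unsorted, 265 CPM in CYC065 unsorted, 78.2 CPM in vehicle 2N, 99.1 CPM in vehicle 4N, 178 CPM in 2N and 164 CPM in 4N cells with CYC065. *Lss*, the lanosterol synthase that closes the sterol rings, was at 87.1 CPM, 69.0 CPM, 27.0 CPM, 34.0 CPM, 59.4 CPM and 58.8 CPM in the same order of libraries. The ranges were 3.74-fold for *Sqle* and 3.23-fold for *Lss*, and CYC065 2N and CYC065 4N cells overlapped for *Lss*. *Lss* had the lowest level per length, 6.36 to 20.8 TPM, with a merged exon length of 10787 bases over all of its annotated transcripts.

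**Figure D1:**
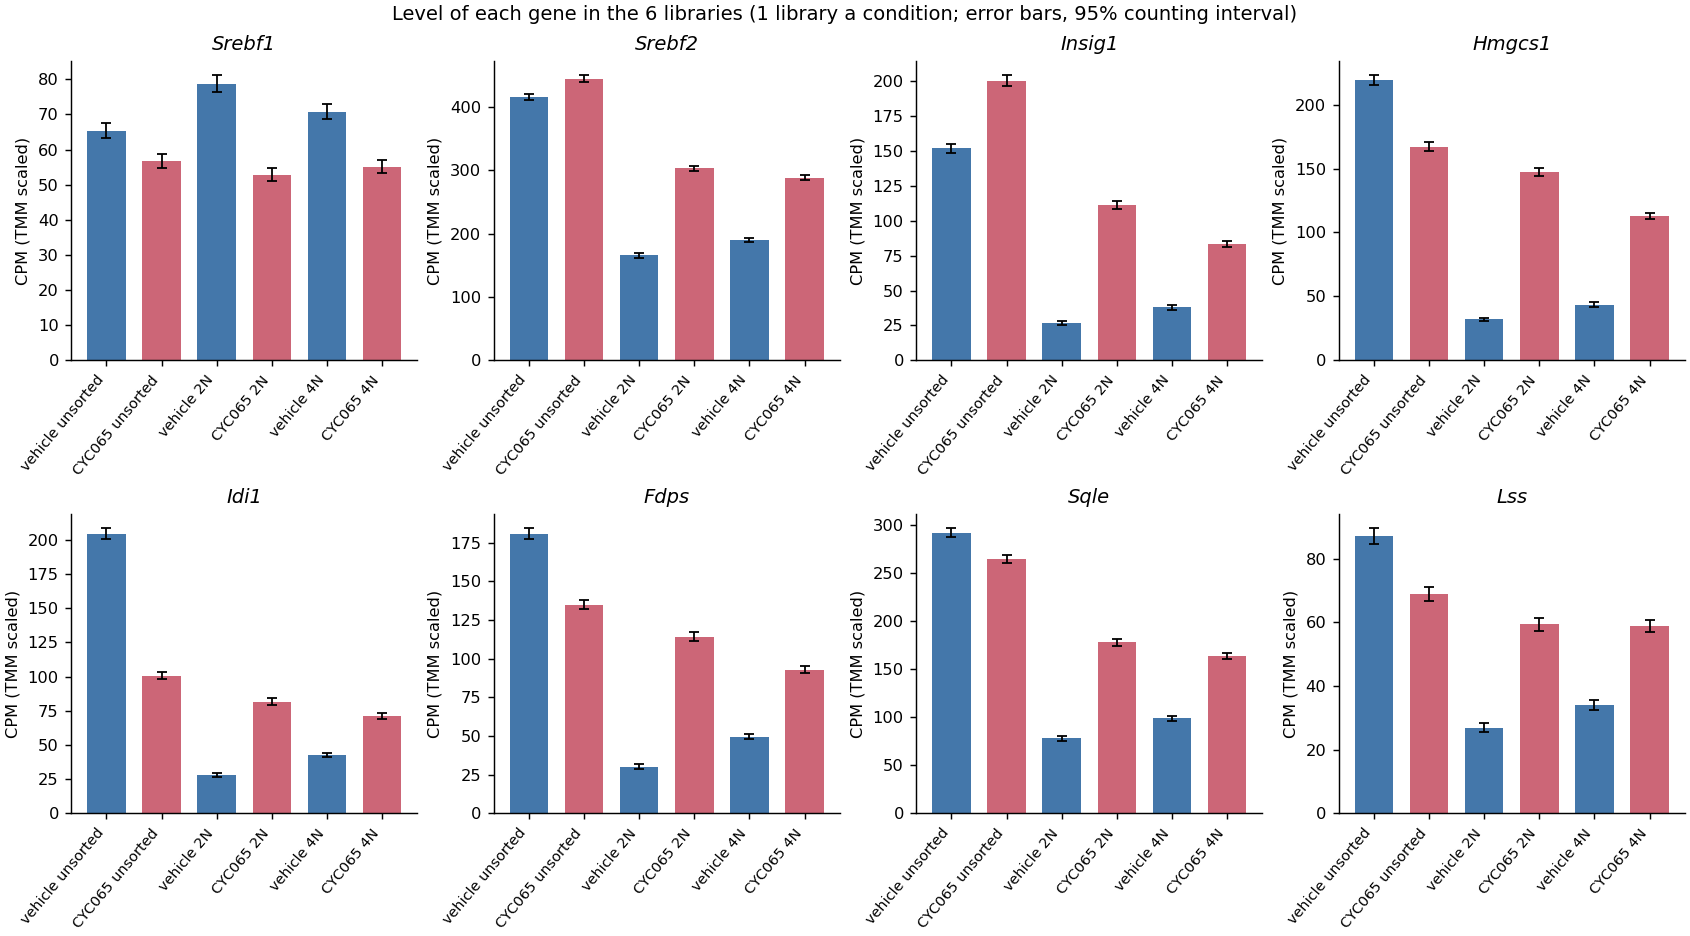
Level of each of the 8 genes in CPM (linear axes from 0) in the 6 libraries, vehicle in blue and CYC065 in red, with 95% counting intervals as error bars and 1 library per condition. Vehicle 2N and vehicle 4N cells have the 2 lowest bars for every gene except *Srebf1*, for which they have the 2 highest.

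The levels of the 6 targets together (*Insig1*, *Hmgcs1*, *Idi1*, *Fdps*, *Sqle* and *Lss*) summed to 1135 CPM in vehicle unsorted and 936 CPM in CYC065 unsorted cells. The sum was 693 CPM in CYC065 2N, 583 CPM in CYC065 4N, 307 CPM in vehicle 4N and 223 CPM in vehicle 2N cells. In this order both unsorted libraries were above both CYC065 sorted libraries, which were above both vehicle sorted libraries. Of the 8 members, 7 had that order, against 3.85% of the 14761 genes tested in any library. It was described after the values were seen. Among the other enzymes of the mevalonate and sterol steps, 9 of 14 tested had it as well.

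The first comparison asked how CYC065 treatment differed from vehicle within each kind of cell. In unsorted cells, 6 of the 8 members were lower with CYC065, by little. *Idi1* was the only member called, with a log2 ratio of -1.02 (95% counting interval -1.07 to -0.98). *Fdps* had -0.42, *Hmgcs1* -0.39, *Lss* -0.34, *Srebf1* -0.21 and *Sqle* -0.14. *Insig1* and *Srebf2* were higher, at 0.40 and 0.10. The member median was -0.27, and -0.07 over all 14084 genes tested, of which 11.7% were called higher and 13.9% lower. A count of 1 member called lower of 8 is therefore near the background. The ratio of *Idi1* was -0.96 with DESeq2 size factors and -0.93 with DESeq2 on the columns, both short of the call.

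In 2N cells the members differed far more between the treatments, and the 5 enzymes did so in the other direction. *Hmgcs1* was 4.61-fold higher with CYC065 (log2 ratio 2.21, interval 2.13 to 2.28). *Insig1* was 4.14-fold higher (2.05, interval 1.97 to 2.13) and *Fdps* 3.77-fold higher (1.91, interval 1.84 to 1.99). *Idi1* had a log2 ratio of 1.53, *Sqle* 1.19 and *Lss* 1.14, so all 6 targets were called higher. *Srebf2* was 1.83-fold higher (0.87), which was short of the call. *Srebf1* alone was lower, 1.49-fold (-0.58). The share of all 14093 genes tested that were called was 14.9% higher and 13.3% lower, beside 6 of 8 members higher and 0 lower. The member median was 1.36.

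In 4N cells the same members were higher with CYC065 by smaller ratios. *Hmgcs1* (log2 ratio 1.37, interval 1.31 to 1.44) and *Insig1* (1.14, interval 1.07 to 1.21) were called. *Fdps* had 0.90, *Lss* 0.79, *Idi1* 0.73, *Sqle* 0.73 and *Srebf2* 0.60, and *Srebf1* had -0.36. The member median was 0.76. Of 14183 genes, 14.1% were called higher and 11.4% lower, beside 2 of 8 members. Of all calls, 55.3% were higher with TMM and 66.5% with library size scaling alone. That scaling moved the median of all genes from -0.07 to 0.07 in 2N, from -0.03 to 0.11 in 4N and from -0.07 to -0.12 in unsorted cells, without turning the direction of any member in these 3 comparisons. It added a call in 2N cells, where *Srebf2* had 1.01 and 7 members were called, and in 4N cells, where *Fdps* had 1.05 and 3 were called.

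**Figure D2:**
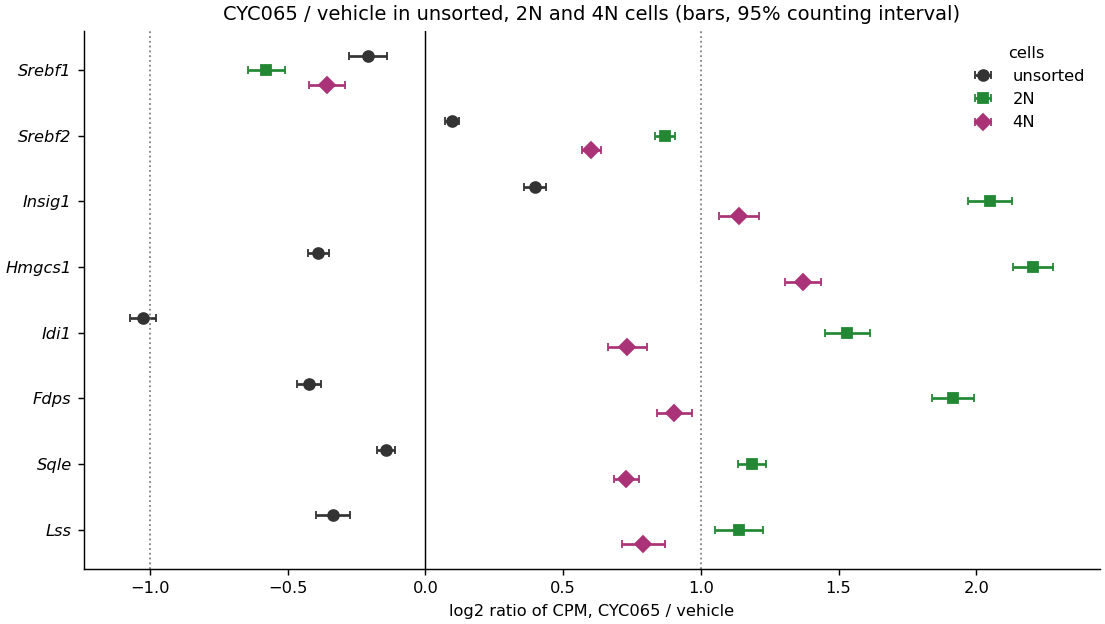
Log2 ratio of CPM between CYC065 and vehicle for the 8 genes in unsorted (circles), 2N (squares) and 4N (diamonds) cells, with 95% counting intervals and dotted lines at 2-fold. The 5 enzymes lie left of 0 in unsorted cells and right of 0 in both sorted populations, with 2N to the right of 4N.

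Unsorted and sorted cells differed most with vehicle. Against the mean of vehicle 2N and 4N cells, vehicle unsorted cells had a 5.79-fold higher level of *Hmgcs1* (log2 ratio 2.53, interval 2.48 to 2.58). *Idi1* was 5.76-fold higher (2.53), *Insig1* 4.69-fold (2.23), *Fdps* 4.52-fold (2.18), *Sqle* 3.30-fold (1.72), *Lss* 2.86-fold (1.51) and *Srebf2* 2.34-fold (1.23). *Srebf1* had -0.19. Thus 7 of 8 members were called higher, beside 7.23% of 13810 genes called higher and 3.44% lower. The vehicle libraries stand in both this comparison and the treatment comparison.

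With CYC065, unsorted and sorted cells were closer. *Insig1* was the only member called, with a log2 ratio of 1.04 (interval 1.00 to 1.08). *Sqle* had 0.63, *Srebf2* 0.59, *Idi1* 0.40, *Fdps* 0.38, *Hmgcs1* 0.36, *Lss* 0.22 and *Srebf1* 0.07, the last of which was -0.12 with library size scaling. Of 14395 genes, 3.37% were called higher and 3.33% lower. Library size scaling moved the share of calls that were higher from 50.3% to 28.6% and the median of all genes from -0.03 to -0.22. The call for *Insig1* ended with that scaling (0.85) and against the 2N library alone (0.85).

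The difference between these ratios was added after the values were seen. It subtracts the CYC065/vehicle log2 ratio of the mean levels of 2N and 4N cells from the log2 ratio of unsorted cells. It was -2.17 for *Hmgcs1* (interval -2.24 to -2.11), -2.13 for *Idi1*, -1.80 for *Fdps*, -1.29 for *Lss*, -1.19 for *Insig1* and -1.09 for *Sqle*. These 6 members were called lower, beside 3.48% of 14761 genes called higher and 7.48% lower. Against the 4N libraries alone, 4 members were called, since *Sqle* had -0.87 and *Insig1* -0.74. Against the 2N libraries alone, 6 were called. *Srebf2* had -0.64 and *Srebf1* 0.26. Of all calls, 31.8% were higher with TMM and 18.8% with library size scaling. Sorted cells were stained for 1 hour, washed and passed through a sorter, and each condition is 1 library, so sorting, culture and library preparation cannot be told apart as sources of the gap between sorted and unsorted cells.

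Most other enzymes of the pathway were higher in vehicle unsorted cells as well. The lists of mevalonate steps and of squalene and sterol steps hold 14 further enzymes described here, and all 14 passed the filter. Between vehicle unsorted and vehicle sorted cells, 9 of the 14 were called higher and 0 lower, with a median log2 ratio of 1.29. Over all genes, 7.23% were called higher and 3.44% lower. The highest was *Pmvk*, the phosphomevalonate kinase, at 2.02, followed by *Fdft1*, the squalene synthase, at 1.97. The 5 that were not called were *Dhcr7* at 0.83, *Sc5d* at 0.75, *Ebp* at 0.66, *Hsd17b7* at 0.10 and *Lbr* at -0.08. These 5 act after lanosterol, but so do *Cyp51*, *Tm7sf2*, *Msmo1* and *Nsdhl*, which were called higher. With CYC065 none of the 14 was called, and the median was 0.45. *Lbr*, a sterol reductase that is also a lamin receptor of the inner nuclear membrane, was the only enzyme below 0 with either treatment, at -0.25 with CYC065. *Hsd17b7*, which reduces a keto group of the sterol ring, had the larger ratio with CYC065, 0.51.

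**Figure D3:**
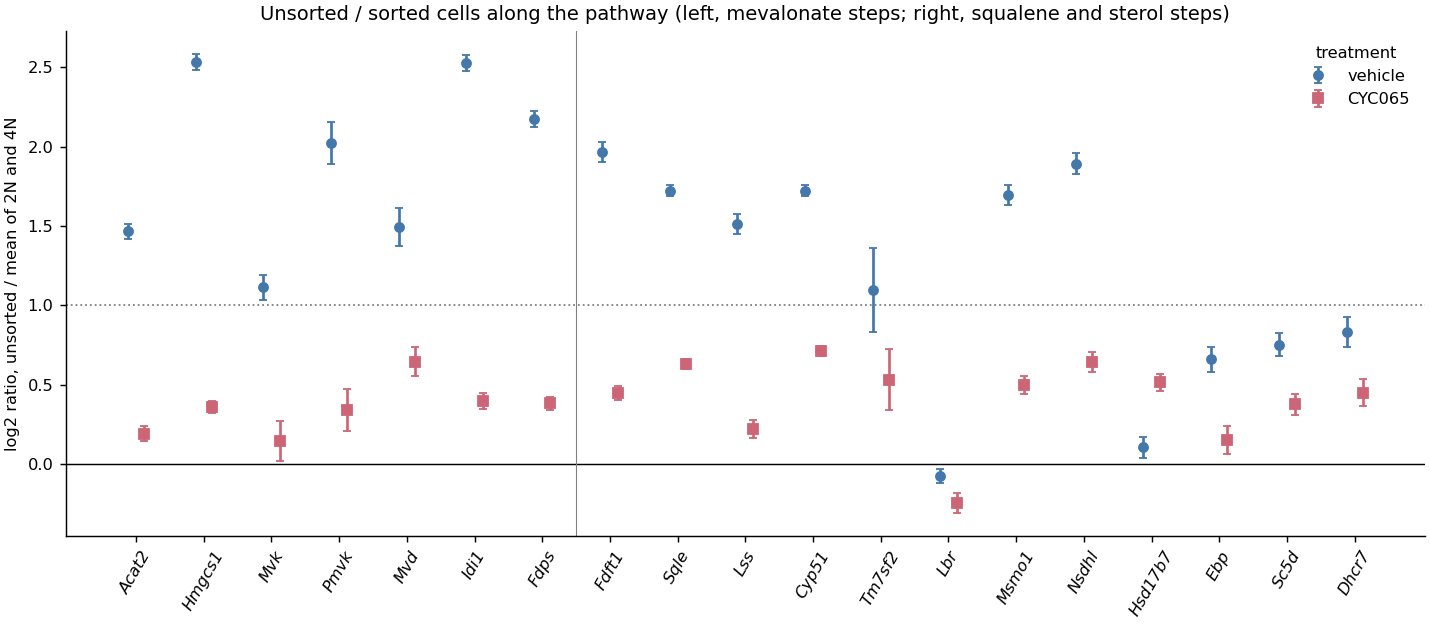
Log2 ratio of unsorted cells to the mean of 2N and 4N cells for 19 enzymes in pathway order, vehicle in blue and CYC065 in red, with 95% counting intervals and a dotted line at 2-fold. The vehicle points lie above the CYC065 points for every enzyme except *Hsd17b7*, with the widest gaps at *Hmgcs1* and *Idi1*.

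With CYC065 against vehicle in 2N cells, 6 of the 14 other enzymes were called higher and 1 lower (median 0.89). Over all genes, 14.9% were called higher and 13.3% lower. *Fdft1* had 1.98, *Tm7sf2* 1.49, the mevalonate diphosphate decarboxylase *Mvd* 1.47 and the lanosterol demethylase *Cyp51* 1.28. *Nsdhl* had 1.14, and *Msmo1* was at 60.5 CPM with CYC065 against 24.5 CPM with vehicle. Both take part in removing methyl groups from the sterol ring, and both were called. In 4N cells only *Fdft1* was called higher, at 1.46 (median 0.33), beside 14.1% of all genes. In unsorted cells none was called higher (median -0.18), beside 11.7% of all genes. *Mvk*, the mevalonate kinase, went the other way. It had log2 ratios of -1.89 in unsorted, -0.81 in 2N and -1.01 in 4N cells. *Lbr* was lower as well, at -1.12, -1.13 and -0.79. Reads of *Acat2* are uncertain, since 39.1% of its 50-base words also occur in another gene.

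The second comparison was of 4N with 2N cells within each treatment, the contrast that the study drew between polyploid and diploid cells. With vehicle, 7 of 8 members were higher in 4N cells, none by more than 2-fold. *Fdps* had a log2 ratio of 0.71 (interval 0.62 to 0.80), *Idi1* 0.60, *Insig1* 0.50, *Hmgcs1* 0.45, *Sqle* 0.34, *Lss* 0.33 and *Srebf2* 0.20. *Srebf1* had -0.16. The member median was 0.40 against 0.01 over all 13364 genes, of which 0.995% were called higher and 1.67% lower. Of the 14 other enzymes, 14 had a ratio above 0 as well (median 0.31).

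With CYC065 the order of 4N and 2N cells was turned for most members. *Insig1* had a log2 ratio of -0.42 (interval -0.47 to -0.36), *Hmgcs1* -0.39, *Fdps* -0.30, *Idi1* -0.20, *Sqle* -0.12 and *Srebf2* -0.07. The intervals of *Lss* (-0.01, or 0.0002 with library size scaling) and *Srebf1* (0.06) reached 0. No member was called, and 1.57% of 14183 genes were called higher and 2.02% lower. Of the 14 other enzymes, 3 were above 0 (median -0.19), namely *Lbr* at 0.43, *Mvk* at 0.03 and *Ebp* at 0.02.

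Subtracting the 4N/2N log2 ratio with vehicle from that with CYC065 gave a negative difference for 7 of 8 members. It was -1.01 for *Fdps* (interval -1.11 to -0.91), -0.91 for *Insig1*, -0.83 for *Hmgcs1*, -0.80 for *Idi1*, -0.46 for *Sqle*, -0.35 for *Lss* and -0.27 for *Srebf2*. *Srebf1* had 0.22. Only *Fdps* was called, beside 3.61% of 14484 genes called higher and 3.50% lower, and its value was -0.99 without replicate 2 and -0.998 without replicate 3, both short of the call. The median over the 14 other enzymes was -0.52, and none was called.

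**Figure D4:**
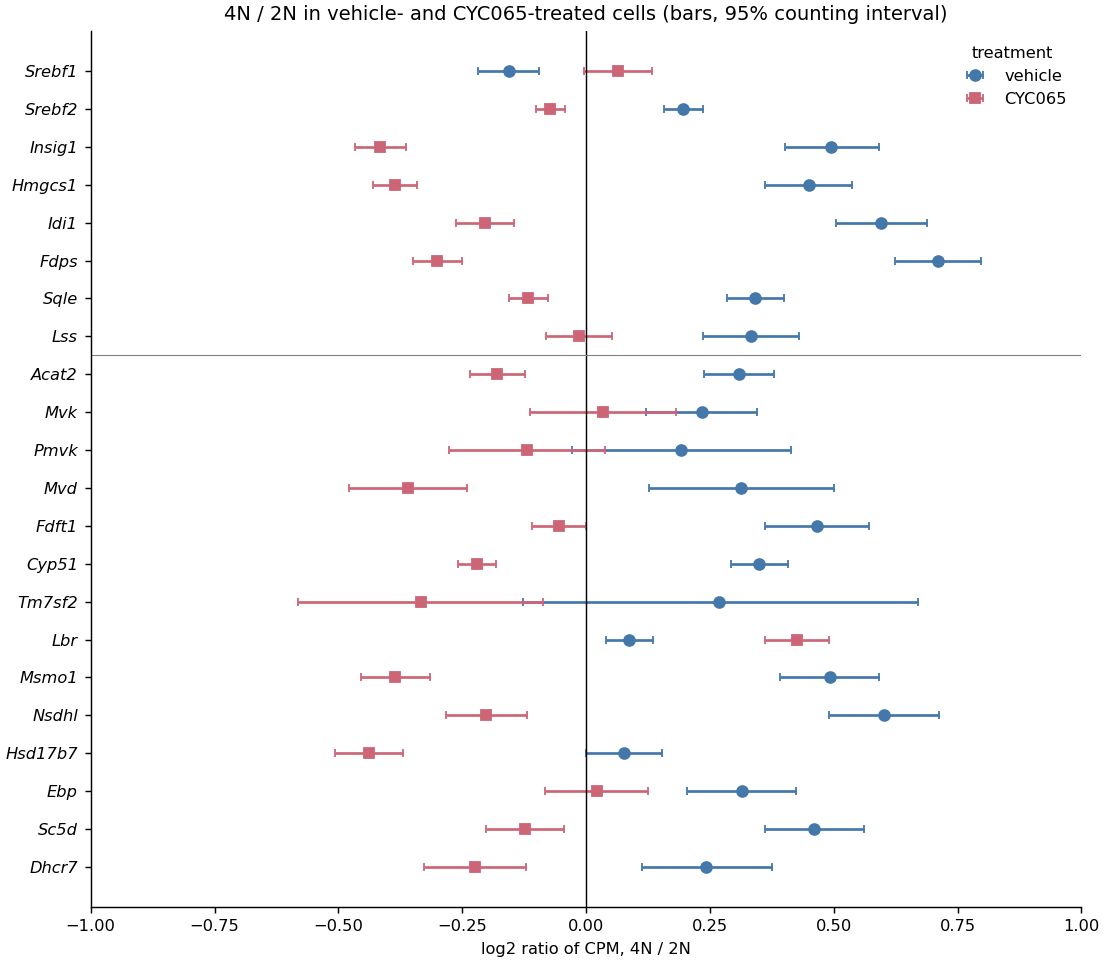
Log2 ratio of CPM between 4N and 2N cells for the 8 genes (above the line) and 14 other pathway enzymes (below it), vehicle in blue and CYC065 in red, with 95% counting intervals. The vehicle points lie right of 0 except for *Srebf1*, while most CYC065 points lie left of it; the CYC065 point of *Lss* crosses 0 with library size scaling.

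The 4N gate can also hold cells in G2 or mitosis. The summed level of 8 genes of these phases, *Cdk1* and *Ccnb1* among them, was 1883 CPM in vehicle unsorted, 649.9 CPM in CYC065 unsorted, 1817 CPM in vehicle 2N, 2801 CPM in vehicle 4N, 544 CPM in 2N and 1442 CPM in 4N cells with CYC065. All 8 were above 0 in 4N against 2N cells, with a median log2 ratio of 0.75 with vehicle. All 8 were called higher with CYC065, beside 1.57% of all genes. The members' 4N/2N ratios were above 0 with vehicle except for *Srebf1*, and mostly below 0 with CYC065. The part of cell cycle phase in the members' ratios was not tested. In bulk RNA, a difference in the share of cells and a difference in RNA per cell cannot be told apart.

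Most of the other SREBP regulators differed by less than 2-fold. Of 10 genes of SREBP factors and regulators, 2 were called higher in 2N and in 4N cells with CYC065. These were *Insig1*, itself a member, and *Insig2*. With 14.9% and 14.1% of all genes called higher, this count is near the background. *Insig2*, the second INSIG gene, had log2 ratios of 1.09 in unsorted, 1.23 in 2N and 1.12 in 4N cells, so it differed by about as much in unsorted as in sorted cells. *Scap*, the escort, had 0.51, 0.18 and 0.19. The proteases *Mbtps1* and *Mbtps2* had 0.29 and -0.43 in 2N cells. Reads of *Mbtps2* are partly uncertain, since 28.9% of its 50-base words also occur in another gene.

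Among 4 genes of cholesterol uptake, 3 were tested. *Vldlr*, the very-low-density lipoprotein receptor, had log2 ratios with CYC065 of 0.56 in unsorted, 1.57 in 2N and 1.89 in 4N cells, and *Lrp1*, another receptor of the family, was called in unsorted cells, at 1.16. No gene of uptake had the order of libraries that 7 members shared. Of the 10 SREBP factors and regulators, 4 had it, *Srebf2* and *Insig1* among them. The order was also present in 4 of 11 genes of fatty acid synthesis, namely *Scd2*, *Elovl6*, *Fads1* and *Fads2*. Its share over all genes tested was 3.85%.

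Of 11 genes of fatty acid synthesis, 3 were called higher with CYC065 in 2N cells and 2 in each of the other kinds of cell. With 14.9%, 11.7% and 14.1% of all genes called higher in 2N, unsorted and 4N cells, these counts are near the background. *Scd1*, a stearoyl-CoA desaturase, had log2 ratios of 1.25 in unsorted and 1.16 in 2N cells and was called in 4N cells as well. *Gpam*, the first acyltransferase of glycerolipid synthesis, had 1.28, 0.92 and 1.14. *Scd2* had -0.10, 1.20 and 0.96, and *Acss2* had 0.22, 1.12 and 0.63. *Fasn*, the fatty acid synthase, had -0.36, -0.39 and -0.41. *Scd1* and *Gpam* thus differed about alike in all 3 kinds of cell, and *Scd2* and *Acss2* mainly in sorted cells.

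The list of LXR, efflux and esterification genes held the largest ratios of any list of lipid genes. LXR is the nuclear receptor that oxysterols activate, and its targets export cholesterol or limit its uptake. *Cyp27a1*, which makes 27-hydroxycholesterol, had log2 ratios of 2.20 in unsorted, 2.93 in 2N and 2.26 in 4N cells. Its vehicle levels were low, with 35 summed counts (0.62 CPM) in 2N and 57 (0.97 CPM) in 4N cells. *Mylip*, a ubiquitin ligase that limits lipoprotein uptake, had 1.77, 2.63 and 2.22. *Abca1*, a cholesterol exporter, had 1.87, 2.03 and 2.02. These 3 genes were called higher with CYC065 in all 3 kinds of cell, whereas 6 members were called higher in 2N cells, 2 in 4N cells and none in unsorted cells. They were 3 of the 7 genes of this list that were tested in unsorted cells and 3 of 8 in 2N and in 4N cells, beside the 11.7%, 14.9% and 14.1% of all genes called higher. The list's median log2 ratio was 0.22, 0.30 and 0.28, and its other tested genes were within 2-fold. *Soat1*, which esterifies cholesterol, had -0.34, -0.58 and -0.60. Of 9 genes of isoprenoid branches, only *Pdss1*, a subunit of the synthase for the coenzyme Q side chain, was called, at -1.85, -2.16 and -1.50. Over all genes, 13.9%, 13.3% and 11.4% were called lower.

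Over the 6 libraries, each of 7 members had another member close to it in the pattern of log2 levels. Only the nearest match of a member is given here. *Srebf2* was nearest to *Sqle* (Pearson r 0.993), *Fdps* to *Lss* (0.993), *Hmgcs1* to *Fdps* (0.992), *Insig1* to *Srebf2* (0.991) and *Idi1* to *Lss* (0.970). *Srebf1* had a negative r with each of the others, from -0.53 with *Idi1* to -0.75 with *Hmgcs1*. These correlations rest on 6 libraries that share their depth and scaling, and they are a description.

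Among 11689 other genes (mean summed count of 100 or more), the 5 most like the mean profile of the members were *Tpd52l2* (r 0.995), *Aldh1l2* (0.994), *Stard4* (0.994), *Cyp51* (0.993) and *Zfyve26* (0.992). *Stard4* encodes a sterol transfer protein. *Stard4* was at 117 CPM in vehicle unsorted, 94.7 CPM in CYC065 unsorted, 33.0 CPM in vehicle 2N, 36.3 CPM in vehicle 4N, 74.5 CPM in 2N and 68.5 CPM in 4N cells with CYC065. *Aldh1l2*, a mitochondrial folate enzyme, spanned 2.30 on the log2 scale, but *Tpd52l2* spanned only 0.12, so likeness in pattern was not likeness in size. An r over 0.9 was reached by 2.69% of the genes searched.

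The labelled origin was checked with markers. The line is labelled as lung, yet each of the 5 epithelial markers (*Krt8*, *Krt18*, *Krt19*, *Epcam* and *Cdh1*) was under 1 CPM in every library, while *Vim*, *Fn1* and *Cdh2* together were at 9247 to 14316 CPM. The summed level of 4 immune markers was 3.60 to 24.1 CPM, nearly all of it from *Cd68*, a lysosomal protein gene of macrophages, with *Ptprc*, *Cd3e* and *Cd79a* each under 1 CPM. *Cd68* was higher with CYC065, by log2 ratios of 1.42 in unsorted, 2.78 in 2N and 2.38 in 4N cells. The hepatocyte markers *Alb* and *Ttr* were together at or below 0.0171 CPM.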

How the data were processed

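Total RNA from ED1SQ4 cells was depleted of ribosomal RNA and made into stranded libraries. Per the labels and the study's methods, the authors trimmed reads (Cutadapt), aligned them to mm10 (STAR) and estimated counts of GENCODE M21 genes (RSEM). The submitters' processing notes name bcl2fastq 2.17, Cutadapt 1.18, STAR 2.7.0f and RSEM 1.3.1. For bcl2fastq and RSEM, the study's methods name other versions. The deposited values are expected counts, without normalization or filter by the authors. A fractional value occurred in 9.66% of genes, including 3 members.

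Expected counts were rounded and the 3 columns of a condition summed. TMM factors (edgeR 4.0.16 in R 4.3.3) were computed over the 6 libraries. Genes were kept where any library compared held a summed count of 30 or more, and log2 ratios used a prior count of 0.5. Intervals were exact conditional binomial for 2 libraries and Wald on Poisson variances for means and differences. The method was tested on counts simulated with Poisson noise, which the intervals assume, so that test cannot show how they cover a spread between cultures. The study's fit of DESeq2 to the columns was an alternative (DESeq2 1.42.0), since the columns are parts of 1 library. TPM used merged exon lengths of GENCODE M21, and likeness was Pearson r of log2 CPM. Python 3.11.15 with pandas 2.3.3 and matplotlib 3.10.9 drew the figures.

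The members, gene lists and tests were chosen with earlier results of these data known. Besides all members, genes were named from each list if beyond 2-fold in a comparison of 2 libraries (at most the 4 of largest change) or if they had the list's largest rise or fall; the 5 genes most alike in pattern were named too. Other named enzymes and regulators were chosen after their values were seen. Alternatives were other scalings, filters, prior counts and thresholds, fits to the 3 columns, and leaving out each replicate. Some pathway genes are not reported here.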

Additional observations from a re-analysis of the deposited data

Results flagged for a closer look

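Between unsorted and sorted cells, the CYC065/vehicle ratio pointed in opposite directions for the 5 enzymes, lower with CYC065 in unsorted cells and higher in both sorted populations. The unsorted minus sorted difference on the log2 scale was -2.17 for *Hmgcs1*, -2.13 for *Idi1*, -1.80 for *Fdps*, -1.29 for *Lss* and -1.09 for *Sqle*. With 1 library per condition the difference was not tested.

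Between vehicle and CYC065, the 4N/2N ratio pointed in opposite directions for 6 members, with counting intervals on either side of 0. The CYC065 minus vehicle difference was -1.01 for *Fdps*, -0.91 for *Insig1*, -0.83 for *Hmgcs1*, -0.80 for *Idi1*, -0.46 for *Sqle* and -0.27 for *Srebf2*. This difference was not tested either, for the same reason.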

How the results depend on the processing

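Each condition is 1 library, so intervals cover counting error only and no alternative measures the spread between cultures. Of 72 member and comparison pairs, 2 changed sign under an alternative, both named with their values in the report (*Lss* and *Srebf1* with library size scaling, and *Lss* also at 0.02 without replicate 2). Leaving out a replicate moved a member's log2 ratio by at most 0.118, and the number of members called kept its value except for the difference of 4N/2N ratios, where it lay between 0 and 1, with 0 without replicate 2 or replicate 3.

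The number of genes called depended on filter and threshold. In the order CYC065 against vehicle in unsorted, 2N and 4N cells, 4N against 2N with vehicle and with CYC065, unsorted against sorted with vehicle and with CYC065, the difference of 4N/2N ratios and the added difference, it was 3606, 3964, 3620, 356, 508, 1474, 964, 1030 and 1618. Without a filter it was 10320, 11669, 10878, 5457, 7212, 6958, 6456, 9494 and 9112. At 1.5-fold it was 6648, 7114, 6788, 1217, 1384, 3443, 2797, 2357 and 3779. For the last 6 comparisons, in the same order, it was 120, 216, 892, 479, 309 and 854 with a summed count of at least 100, and 70, 163, 818, 393, 107 and 556 with the interval wholly beyond 2-fold.

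The number of members called in unsorted cells with CYC065 was 0 with DESeq2 size factors, with DESeq2 and with the interval wholly beyond 2-fold. At 1.5-fold it was 7 in 4N cells with CYC065, beside 6788 of 14183 genes called. In 4N against 2N cells with vehicle it was 2, beside 1217 of 13364 genes. In unsorted against sorted cells with CYC065 it was 3, beside 2797 of 14395. For the difference of 4N/2N ratios it was 4 at 1.5-fold, beside 2357 of 14484. For unsorted against sorted cells with CYC065 it was 0 with library size scaling and 0 against the 2N library alone. For the difference of 4N/2N ratios it was 0 with the interval wholly beyond 2-fold.

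Fits to the 3 columns treat parts of 1 library as replicates (common biological coefficient of variation 0.0288). For the difference of 4N/2N ratios they called 621 genes with edgeR, 648 with edgeR and a replicate block, and 361 with DESeq2; elsewhere counts stayed within 1.5 times. Deviations of the columns' log2 levels from the mean of their condition were correlated between conditions. The correlation was -0.370 to 0.389 for same-numbered columns and -0.309 to 0.460 for differently numbered ones. The numbers therefore did not pair the columns, and the replicate block changed no number of members called.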
